A study of Mus musculus with 6 samples.

Results

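The immediate early genes examined here are Fos, Fosb, Jun, Junb, Jund, Egr1, Atf3, Ier2, Dusp1 and Zfp36, chosen by symbol and by no threshold on a measured value. All 10 are among the 16179 genes of the table, and all 10 passed the filter on low values (a mean of at least 10 normalised reads over the 6 libraries). Expression was measured by RNA sequencing in hippocampal microglia, the resident macrophages of the brain, from male mice aged 10 months, of strain B6.129S4(FVB)-Grntm1.1Far/Mmja, which lack progranulin. The neutral lipid dye BODIPY divided live CD11b+ CD45lo cells into a BODIPY-low fraction, poor in lipid droplets, and a BODIPY-high fraction, rich in them, with 3 libraries each. Both fractions carry the same progranulin knockout, and wild-type libraries are not part of the analysis. Each library comes from hippocampi pooled from 2 mice. The sample titles number the libraries of each fraction 1, 2 and 3, but no label says whether a low and a high library of the same number come from the same pool, so every p-value reflects no more than the variation among these 6 libraries.

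Immediate early genes are transcribed within minutes of a stimulus, without new protein synthesis, when MAP kinases and calcium signals activate factors already present on their promoters. FOS and JUN proteins pair through leucine zippers to form AP-1, which together with EGR1 drives a later set of genes, while DUSP1 and ZFP36 end the response by inactivating MAP kinases and by destabilising mRNAs. In microglia these genes are known to be switched on during tissue dissociation and sorting as well as by signals in the living brain, and bulk libraries do not tell these sources apart. Nor can a bulk library tell a change in the share of cells that express a gene from a change in RNA per cell.

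Library depth ran from 24982215 to 34899425 recovered reads. Grn, the targeted gene, had 416, 625 and 990.1 normalised reads in BODIPY-low libraries 1, 2 and 3 and 468, 657 and 1614 in BODIPY-high libraries 1, 2 and 3. Where along the gene these reads lie was not analysed here, so they cannot check the deletion. The 10 microglia markers (P2ry12, Tmem119 and others) took between 5.18% and 6.49% of all reads in every library. Normalised reads are read counts divided by 1 size factor per library, and each fold change is a difference in log2(value + 1), negative where BODIPY-high is lower.

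Most of these genes were abundant. The mean over the 6 libraries placed Jun at rank 74 of the 16179 genes and Junb at rank 185, whereas Atf3 stood at rank 4612 and Fosb at rank 9408. Per kilobase of annotated exon, mean levels in BODIPY-low libraries were 13779 ± 2344 for Jun, 8797 ± 1270 for Junb and 6279 ± 2666 for Fos (normalised reads per kb, SD, n = 3). Zfp36 and Dusp1 followed at 5785 ± 1368 and 5699 ± 1811, then Jund at 3861 ± 602 and Ier2 at 3753 ± 572. Egr1 had 2429 ± 978 and Atf3 520 ± 96.0, and Fosb was far below them at 28.4 ± 18.4 normalised reads per kb. Fos, Zfp36 and Dusp1 did not differ beyond their spread, and their order changed between libraries. The ranges of Junb and Fos overlapped, as did those of Jund and Ier2. Within every library of both fractions, however, Junb lay above Fos and Jund above Ier2. Jund and Ier2 were closest in BODIPY-low library 1, at 3188 and 3142 normalised reads per kb. In BODIPY-high libraries the order of these levels per kb was the same, except that Dusp1 (4042 ± 1041) and Zfp36 (4028 ± 705) changed places, within their spread. Together the 10 genes took 0.369%, 0.603% and 0.559% of all reads in BODIPY-low libraries 1, 2 and 3, and 0.269%, 0.401% and 0.415% in BODIPY-high libraries 1, 2 and 3.

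Promoter sequences come from RefSeq (GRCm38.p6), where 8 of the 10 genes matched, all but Egr1 and Ier2. The 250 bases before the RefSeq start of the AP-1 genes Fos and Fosb and of the feedback genes Dusp1 and Zfp36 are shown because together they hold each kind of motif found in the 8 windows. Sequences run 5′ to 3′, toward the start. Capitals mark matches on either strand to the half-site TGACG or the full site TGACGTCA of the cAMP response element, to TGANTCA (AP-1), to GCGNGGGCG (EGR) or to the CArG box, the core of the serum response element.
Fos, chr12:85473640-85473889, plus strand: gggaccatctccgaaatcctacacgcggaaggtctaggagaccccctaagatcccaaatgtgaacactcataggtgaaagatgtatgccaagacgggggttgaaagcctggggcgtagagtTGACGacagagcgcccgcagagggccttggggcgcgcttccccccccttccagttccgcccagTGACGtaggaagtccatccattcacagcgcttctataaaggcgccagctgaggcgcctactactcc
Fosb, chr7:19310046-19310295, minus strand: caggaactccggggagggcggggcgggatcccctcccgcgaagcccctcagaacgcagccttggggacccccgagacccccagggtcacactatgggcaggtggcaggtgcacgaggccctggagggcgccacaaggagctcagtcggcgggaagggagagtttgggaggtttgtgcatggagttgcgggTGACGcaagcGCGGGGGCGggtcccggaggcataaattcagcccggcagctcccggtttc
Dusp1, chr17:26508473-26508722, minus strand: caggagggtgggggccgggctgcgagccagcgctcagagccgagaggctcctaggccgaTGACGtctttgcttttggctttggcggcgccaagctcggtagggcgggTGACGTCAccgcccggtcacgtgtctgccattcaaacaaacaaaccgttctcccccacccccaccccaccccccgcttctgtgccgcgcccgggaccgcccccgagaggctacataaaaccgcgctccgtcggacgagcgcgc
Zfp36, chr7:28379229-28379478, minus strand: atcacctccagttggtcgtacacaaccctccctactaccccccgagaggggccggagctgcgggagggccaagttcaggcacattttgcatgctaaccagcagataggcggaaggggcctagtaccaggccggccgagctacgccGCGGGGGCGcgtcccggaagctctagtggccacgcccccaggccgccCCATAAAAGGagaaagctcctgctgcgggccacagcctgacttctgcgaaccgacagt
The half-site lay in 5 of the 8 promoters, those of Fos, Fosb, Junb, Atf3 and Dusp1, and in 17.8% of all 32851 windows of this length. Dusp1 held the full cAMP response element (1.55% of all windows), 143 bases before the start, and this palindrome contains the half-site on both strands. The Zfp36 promoter held a CArG box (1.47%) and an EGR match (4.70%), 58 and 105 bases before the start, and Fosb an EGR match. No AP-1 match was found in these 8 windows, against 6.75% of all windows. A match describes letters in this window and does not show that a factor binds there. Only these exact patterns within these 250 bases were searched, so the lack of a match does not show that a promoter has no such site, in the window or farther upstream. RefSeq starts differ from annotated gene starts for some genes: the Jund window on chromosome 8 ends at 70697738, before the annotated gene start at 70698949.

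Among the JUN proteins, which can pair with themselves or with FOS, Jun passed the test. Jun (GRCm38 chromosome 4, 95049034 to 95052222) reached 35977, 50808 and 45035 normalised reads in BODIPY-low libraries 1, 2 and 3, and 24846, 32675 and 33773 in BODIPY-high libraries 1, 2 and 3. All 3 BODIPY-high libraries lay below all 3 BODIPY-low ones. Jun fell from 43940.2 ± 7476 to 30432 ± 4868 (SD, n = 3 each), a log2 fold change of -0.53 (limma, SE 0.14, adjusted p = 0.0321), and an exact two-sided permutation test of the libraries gave p = 0.1, the smallest possible. The call was lost without BODIPY-low library 2 (adjusted p = 0.118) or 3 (0.116) and without BODIPY-high library 1 (0.0818) or 3 (0.0521). Junb, an AP-1 subunit that also restrains JUN activity, had 17758, 23462 and 19507 normalised reads in BODIPY-low libraries, and 13131, 17646 and 16443 in BODIPY-high libraries. The groups touched but did not overlap, with BODIPY-high library 2 just under BODIPY-low library 1, and the difference did not pass (log2 fold change -0.36, 95% interval -0.65 to -0.08, limma adjusted p = 0.0879). Jund, the JUN protein that resting cells express most steadily, had 5318, 7256 and 6748 in BODIPY-low and 3612, 6339 and 5698 in BODIPY-high libraries. Jund's groups overlapped (log2 fold change -0.33, interval -0.75 to 0.08, limma adjusted p = 0.291).

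**Figure D1:**
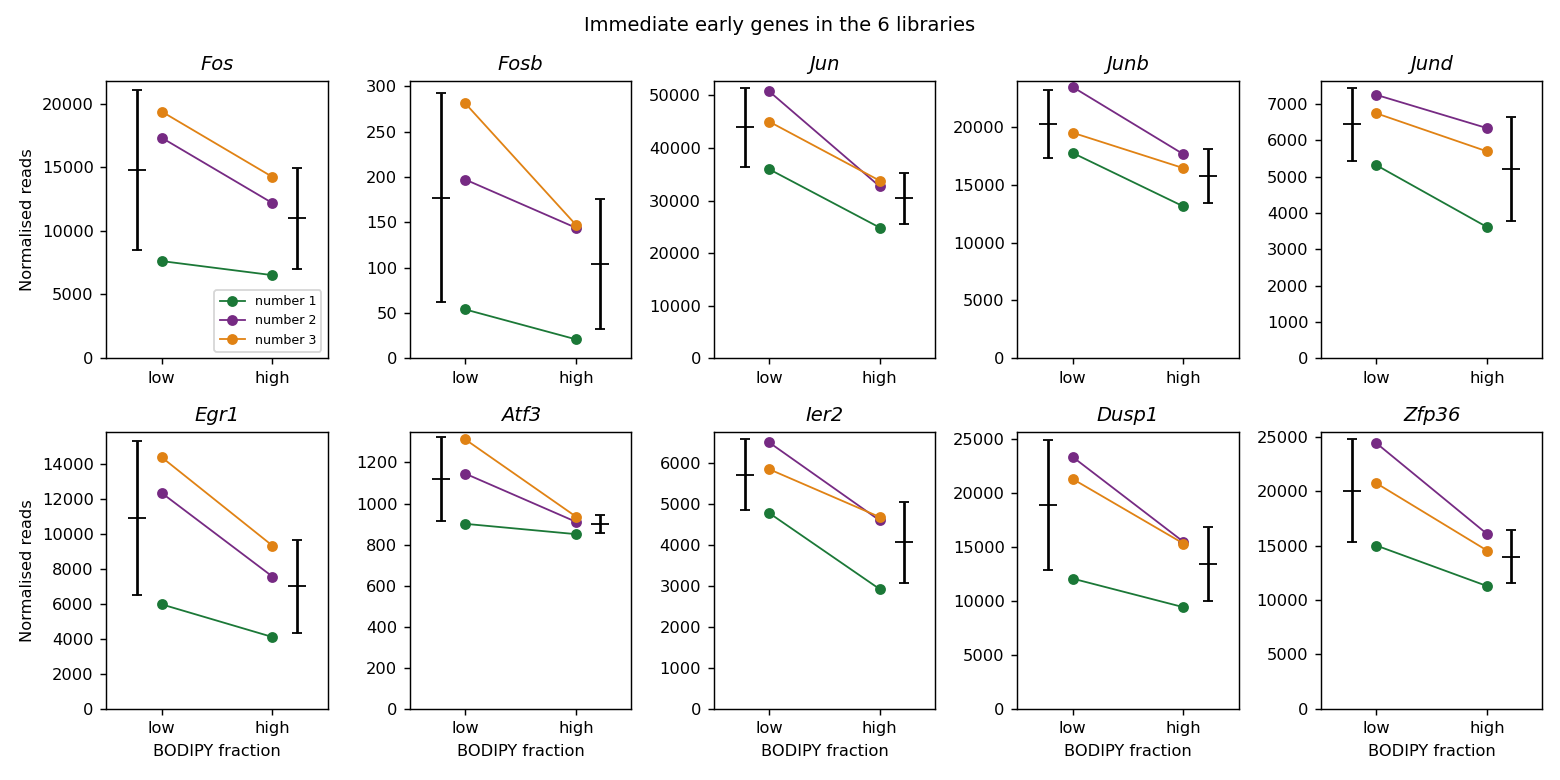
Normalised reads (vertical axis, from 0) of each gene in the BODIPY-low and BODIPY-high fractions, with a colour and a line for libraries of the same number and black bars for mean ± SD (n = 3). For all 10 genes number 1 is the lowest library in both fractions and each line descends from low to high; lines join equal numbers only, since shared pools are not documented.

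The FOS proteins, which bind DNA only with a JUN partner, varied widely within a fraction. Fos (chromosome 12, 85473890 to 85477273) reached 7624, 17311 and 19369 normalised reads in BODIPY-low libraries, and 6518, 12179 and 14235 in BODIPY-high libraries 1, 2 and 3. Library 1 was the low one in both fractions, and BODIPY-low library 1 lay below BODIPY-high libraries 2 and 3. The means, 14768 ± 6272 and 10977 ± 3997 (SD, n = 3 each), differed by less than this spread (log2 fold change -0.39, interval -1.14 to 0.35, limma adjusted p = 0.509). Fosb, a close relative of Fos made at much lower levels in these libraries, had 53.7, 197 and 281 normalised reads in BODIPY-low libraries, and 20.7, 144 and 147 in BODIPY-high libraries. Its lowest library, BODIPY-high library 1, holds 22 reads. Fosb did not pass (log2 fold change -0.91, interval -2.55 to 0.74, limma adjusted p = 0.489), and without BODIPY-high library 1 the difference between groups was 0.012.

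Egr1 (chromosome 18, 34859823 to 34864984), a zinc finger factor induced through serum response elements, had 5969, 12335 and 14376 normalised reads in BODIPY-low libraries, and 4103, 7558 and 9323 in BODIPY-high libraries. As for Fos, library 1 was far below libraries 2 and 3 of its own fraction, so the groups overlapped (log2 fold change -0.62, interval -1.35 to 0.10, limma adjusted p = 0.256). Atf3, a stress-induced relative of the AP-1 proteins that often represses transcription, had 901, 1145 and 1312 in BODIPY-low and 851, 911 and 936 in BODIPY-high libraries. Atf3 varied least within the BODIPY-high fraction, and BODIPY-low library 1 lay among the BODIPY-high values (log2 fold change -0.30, interval -0.62 to 0.02, limma adjusted p = 0.219). Ier2, a nuclear protein of the immediate early response, had 4782, 6505 and 5851 in BODIPY-low and 2921, 4597 and 4681 in BODIPY-high libraries. The groups of Ier2 did not overlap, but the difference missed the threshold (log2 fold change -0.51, interval -0.90 to -0.13, limma adjusted p = 0.0813).

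Both genes of the negative feedback arm were lower in the BODIPY-high fraction on average, and neither passed. Dusp1 (chromosome 17), a nuclear phosphatase that inactivates p38 and JNK, had 12045, 23300.2 and 21263 normalised reads in BODIPY-low libraries, and 9402, 15454 and 15291 in BODIPY-high libraries. BODIPY-low library 1 lay below BODIPY-high libraries 2 and 3 (log2 fold change -0.48, interval -1.01 to 0.06, limma adjusted p = 0.237). Zfp36 (chromosome 7, 28376784 to 28380253), or tristetraprolin, which binds AU-rich elements and speeds the decay of Tnf and other mRNAs, had 15021, 24444 and 20756 in BODIPY-low and 11293, 16083 and 14560.4 in BODIPY-high libraries. Here a single BODIPY-high library, number 2, exceeded BODIPY-low library 1 (log2 fold change -0.51, interval -0.89 to -0.13, limma adjusted p = 0.0767).

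All 10 genes thus had a lower mean in BODIPY-high libraries, with a median log2 fold change of -0.49 against -0.01 over the 12821 tested genes. Jun was the only one of the 10 called lower, beside 3.52% of all tested genes called lower and 9.79% called higher. At an unadjusted p below 0.05, 4 of the 10 were lower (Jun, Junb, Ier2 and Zfp36), against 11.0% of tested genes. Groups did not overlap for 3 of the 10 (Jun, Junb and Ier2), with all BODIPY-high libraries below all BODIPY-low ones, as in 13.4% of tested genes. Scaling by total reads in place of size factors left this true of Jun alone. The share of all tested genes under that scaling was not computed. DESeq2 called 4 of the 10 lower (Jun, Junb, Ier2 and Zfp36), beside 5.24% of the 12816 genes to which it gave an adjusted p, and edgeR called 1, beside 3.33% of tested genes. By limma the count was 5 without BODIPY-low library 1, where 2.75% of tested genes were called lower. It was 0 without BODIPY-low library 2 or 3 or BODIPY-high library 1 or 3, where 1.40%, 1.18%, 4.08% and 1.71% of tested genes were called lower. In these 4 fits 1, 4, 2 and 5 of the 10 had an unadjusted p below 0.05, against 7.68%, 7.23%, 12% and 8.99% of tested genes.

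**Figure D2:**
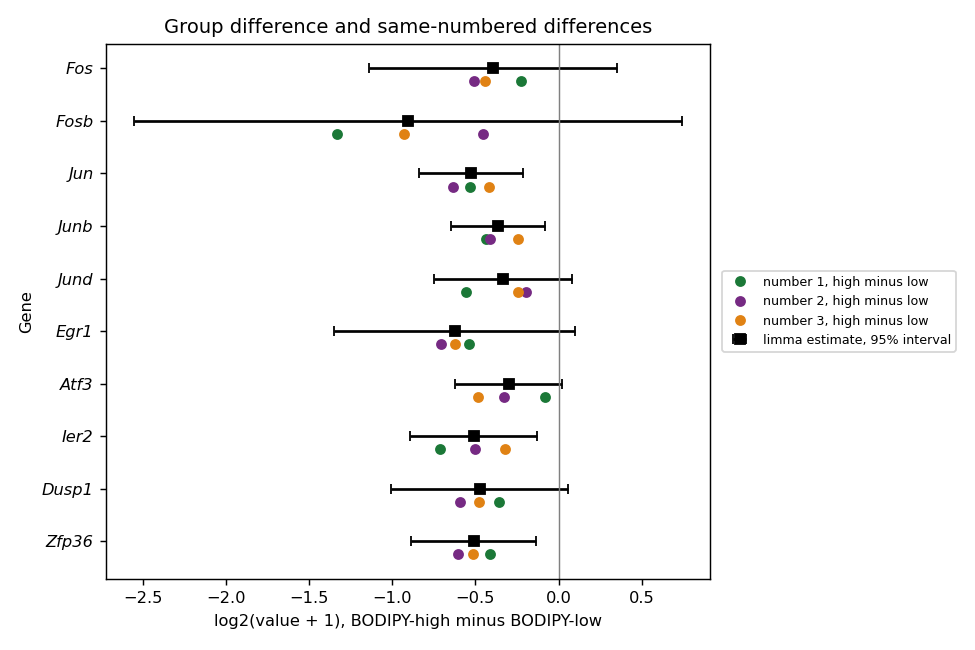
Horizontal axis, BODIPY-high minus BODIPY-low on the log2(value + 1) scale. Black squares are limma estimates from 3 against 3 libraries with 95% intervals, and coloured points are differences between libraries of the same number. All 30 points lie left of 0, and they come from the same 3 pairs of libraries for every gene. Only the intervals of Jun, Junb, Ier2 and Zfp36 exclude 0.

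Set side by side by number, the BODIPY-high library was lower than the BODIPY-low library for every gene and every number, 30 of 30 differences. All genes were read from the same 3 pairs of libraries, so the 30 differences are not independent of one another. Among all tested genes 24.8% were lower in all 3 same-numbered pairs. Jun in BODIPY-high libraries stood at 69.1%, 64.3% and 75.0% of the BODIPY-low level for numbers 1, 2 and 3. For Egr1 these shares were 68.7%, 61.3% and 64.8%. Zfp36 stood at 75.2%, 65.8% and 70.2%, and Dusp1 at 78.1%, 66.3% and 71.9%. The within-number log2 differences had an SD of 0.08 for Egr1, 0.10 for Zfp36 and 0.10 for Junb (n = 3 numbers). They spread more for Atf3 (94.4%, 79.5% and 71.3% of the BODIPY-low level), Jund (67.9%, 87.4% and 84.4%) and Fosb (38.6%, 73.0% and 52.3%). No label pairs these libraries, so the differences are a description without a test.

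Library number 1 was the lowest of its fraction for all 10 genes, in both fractions, which held for 15.6% of all tested genes. Number 1 being lowest in both fractions and BODIPY-high being lower within all 3 numbers coincided for the 10 genes and for 5.98% of tested genes. In BODIPY-low libraries Fos was 2.27 and 2.54 times as high in libraries 2 and 3 as in library 1, and in BODIPY-high libraries 1.87 and 2.18 times. Egr1 was 2.07 and 2.41 times as high in BODIPY-low and 1.84 and 2.27 times in BODIPY-high libraries. Fosb differed most, by 3.67 and 5.23 times in BODIPY-low and by 6.94 and 7.09 times in BODIPY-high libraries. At the other end were Junb (1.32 and 1.10 times, then 1.34 and 1.25 times) and, in BODIPY-high libraries, Atf3 (1.07 and 1.10 times). Averaged over both fractions, the log2 level of numbers 2 and 3 exceeded that of number 1 by 2.43 for Fosb, 1.14 for Fos, 1.10 for Egr1 and 0.80 for Dusp1. The median of this log2 contrast was 0.54 over the 10 genes and -0.02 over all tested genes. Numbers 2 and 3 had no fixed order, since BODIPY-low library 2 was the highest of its fraction for 6 of the 10 genes and BODIPY-low library 3 for 4.

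**Figure D3:**
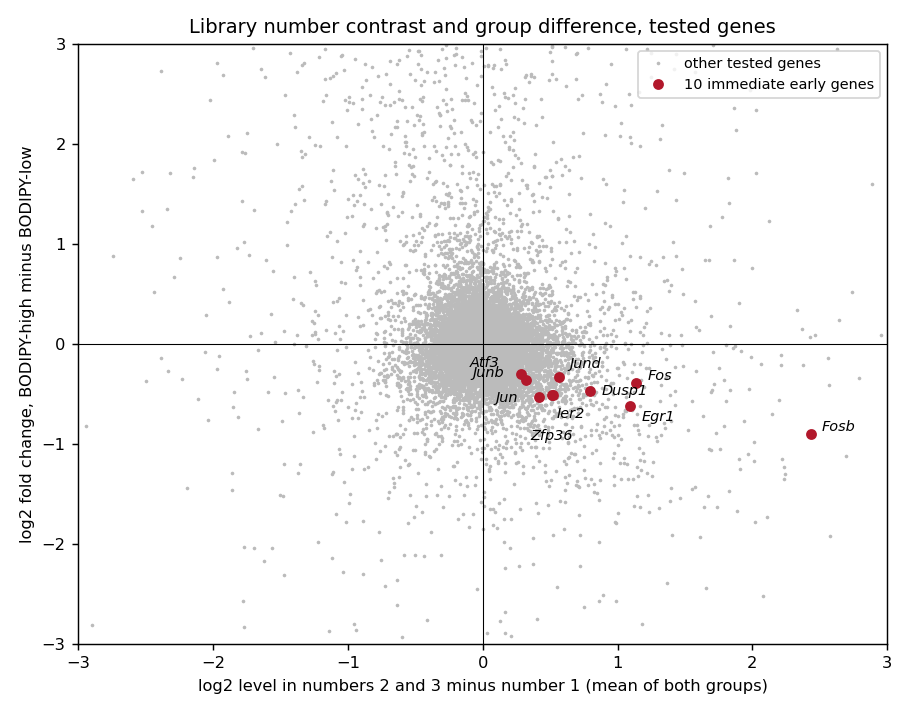
Each point is a tested gene. Horizontal axis, log2 level in libraries 2 and 3 minus library 1, averaged over both fractions; vertical axis, log2 fold change between fractions. The 10 genes (red) all lie to the right of 0 and below 0, with Fosb, Fos and Egr1 farthest right; 705 of 12811 other genes lie beyond the axes, which end at 3.

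BODIPY-low library 1, with 25014007 reads, was the shallowest of its fraction, and BODIPY-high library 1, with 30285045, was neither the shallowest nor the deepest of its own. With library 1 left out of both fractions, a step chosen after these values were seen, limma called 6 of the 10 lower (2 against 2 libraries), beside 4.36% of all tested genes. All 10 then had an unadjusted p below 0.05 and a lower mean, against 12.3% of tested genes.

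Heat shock genes, most of which encode chaperones, are also known to respond to tissue handling, and most ran the other way across library numbers. Of 15 tested, 13 were highest in number 1 of both fractions, against 16.4% of all tested genes and 0 of the 10 immediate early genes. Hsf1, which encodes a transcription factor, did not run the other way (log2 contrast of numbers 2 and 3 minus 1 of 0.17). Hspa1a, singled out after its values were seen, had 2439, 284 and 193 normalised reads in BODIPY-low libraries, and 2147, 263 and 284 in BODIPY-high libraries 1, 2 and 3. Hspa1b, a near-identical copy whose reads may be split with Hspa1a, had 3616, 314 and 184, then 2806, 302 and 294. Within a fraction library 1 of these genes was between 7.55 and 19.7 times as high as library 2 or 3, while the fractions overlapped. The median log2 contrast of numbers 2 and 3 minus 1 was -0.62 for the heat shock genes. Between fractions Hspb1 alone of the 15 passed, beside 9.79% of all tested genes called higher. At an unadjusted limma p below 0.05, 3 of the 15 were higher and 0 lower, and the share of all tested genes higher at that threshold was not computed. With 1 library left out, between 0 and 3 of the 15 were called in either direction, beside between 908 and 1648 of the 12821 tested genes. Hspb1, a small heat shock protein, rose from 63.5 ± 8.73 to 159 ± 35.3 normalised reads (log2 fold change 1.29, SE 0.29, limma adjusted p = 0.0137). Hspb1 lost its call without BODIPY-low library 3 (adjusted p = 0.0544), without BODIPY-high library 3 (0.0579) and without library 1 of both fractions (0.0724).

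**Figure D4:**
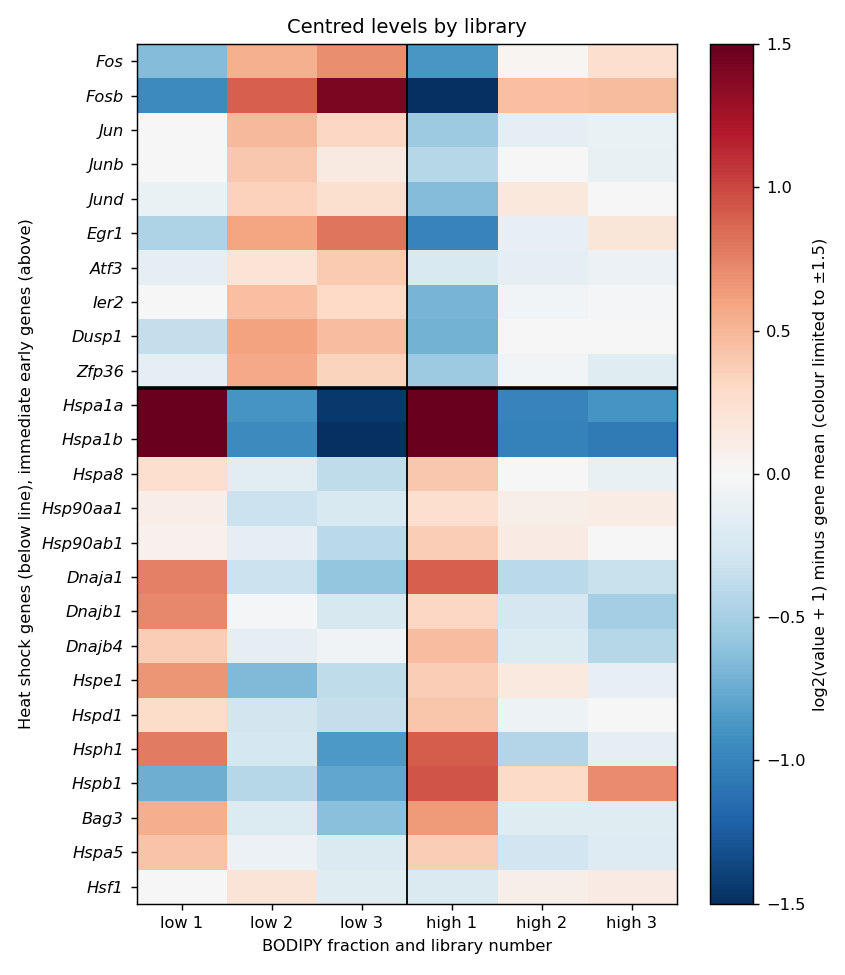
Level of each gene in each library as log2(value + 1) minus the gene's mean over 6 libraries, red above and blue below the mean. Immediate early genes (upper block) are lowest in library 1 of each fraction, and 13 of the 15 heat shock genes (lower block) are highest there.

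Other immediate early genes fell in part. Of 35 listed, 29 were tested, 8 fell and none rose, beside 3.52% of all tested genes called lower and 9.79% called higher. The median log2 fold change of the 29 was -0.38. Klf6, a Krüppel-like factor, fell from 11567 ± 208 normalised reads to 8256 ± 140.1 (SD, n = 3 each, log2 fold change -0.49, limma adjusted p = 0.00163). Its BODIPY-low values of 11528, 11381 and 11791 and BODIPY-high values of 8336, 8338 and 8095 varied little within a fraction and did not follow library number. Klf2 fell from 1717 ± 306 to 839.5 ± 199.9 (-1.04, adjusted p = 0.00359) and Socs3, an inhibitor of cytokine receptor signalling, from 2353 ± 115 to 1619 ± 106 (-0.54, adjusted p = 0.00502). Beyond these, Btg1, Btg2, Sgk1, Trib1 and Mcl1 passed, named here with their values known. Their log2 fold changes lay between -0.60 and -0.29, and Btg1 (adjusted p = 0.0481) lost its call with edgeR (0.0538), with no filter on low values (0.0557) and with a mean of at least 50 (0.0556). Without BODIPY-low library 3 the adjusted p of Btg1, Btg2, Trib1 and Mcl1 was 0.155, 0.05002, 0.0516 and 0.101. Btg1, Trib1 and Mcl1 also lost their calls without BODIPY-low library 2 (0.189, 0.0574 and 0.114), Btg1 and Mcl1 without BODIPY-high library 3 (0.133 and 0.0661), Btg1 without BODIPY-high library 2 (0.128) and Mcl1 without BODIPY-high library 1 (0.0643). The list's count in either direction was 10, 5 and 5 without BODIPY-low library 1, 2 and 3. It was 7, 11 and 6 without BODIPY-high library 1, 2 and 3. In the same order, 1648, 1057, 1047, 1598, 1533 and 908 of the 12821 tested genes were called in either direction. In all 3 same-numbered pairs 16 of the 29 were lower, against 24.8% of all tested genes. Number 1 was lowest in both fractions for 10 of the 29, against 15.6%. Rhob and Ier5 were 2 of those 10, also picked with values known, at 10465, 14921 and 14222 then 6432, 12147 and 8921 normalised reads for Rhob and at 8455, 10864 and 10919.9 then 6011, 8985 and 9044 for Ier5.

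Of the remaining AP-1 and Maf factors 13 were tested, 0 were called by limma, edgeR or DESeq2, 0 had an unadjusted p below 0.05, and the median log2 fold change was -0.14. In all 3 same-numbered pairs 6 of the 13 were lower, against 24.8% of all tested genes. Number 1 was lowest in both fractions for 2 of the 13, against 15.6%. Upstream, in the MAP kinase cascade with the serum response factors, 1 of 26 rose and 1 fell, with a median of -0.07. Among all tested genes limma called 9.79% higher and 3.52% lower. Mapk9, which encodes JNK2, rose by 0.43 on the log2 scale (adjusted p = 0.0170) and Map2k7, a kinase that activates JNK, fell by 0.63 (adjusted p = 0.0342). Dusp6, a cytosolic phosphatase of ERK, was the only called gene of 8 other MAP kinase phosphatases and fell from 48594 ± 5182 to 36402 ± 1488 (log2 fold change -0.41, limma adjusted p = 0.0139). Among 15 ZFP36 relatives and decay partners Zfp36l2 alone was called and fell by 0.39 (adjusted p = 0.0185). Each of these 4 calls was lost without BODIPY-low library 2, BODIPY-low library 3 or BODIPY-high library 3 (adjusted p between 0.0510 and 0.155), and that of Map2k7 also without BODIPY-high library 1 (0.0777).

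Cytokine mRNAs known as ZFP36 targets gave 0 calls among 8 tested by limma. At an unadjusted p below 0.05, 2 were lower, against 11.0% of tested genes. edgeR called 0 of the 8 and DESeq2 called 1 lower, beside 5.24% of the genes to which DESeq2 gave an adjusted p. Limma called 1 of the 8 without BODIPY-low library 1, BODIPY-low library 2 or BODIPY-high library 2, and 0 with any other library left out. Without those libraries, in that order, 1648, 1057 and 1533 of the 12821 tested genes were called in either direction. The median log2 fold change of the 8 was -0.32. Il1a, the most abundant of them, had 4147 ± 169 and 3570.3 ± 274 normalised reads (SD, n = 3 each, limma adjusted p = 0.151). Tnf, whose mRNA ZFP36 destabilises, chosen here after its values were seen, had 174, 218 and 280.2 normalised reads in BODIPY-low libraries, and 67.8, 147 and 126 in BODIPY-high libraries. All 3 BODIPY-high libraries lay below all 3 BODIPY-low ones, number 1 was the lowest in both fractions, and the difference did not pass (log2 fold change -1.02, SE 0.32, limma adjusted p = 0.0606). Ccl3 and Ccl4, chemokines also chosen after their values were seen, had the library order of the immediate early genes, with 1253, 2468 and 3167 then 1206, 2304 and 2328 normalised reads for Ccl3 and 1908, 3320.2 and 4037 then 1658, 2717 and 2532 for Ccl4. Tnf, Ccl3 and Ccl4 were the only 3 of the 8 with number 1 lowest in both fractions, against 15.6% of all tested genes. In all 3 same-numbered pairs 4 of the 8 were lower, against 24.8%. Il1b alone had a higher mean in BODIPY-high libraries (log2 fold change 0.26).

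Among 9384 genes outside these lists with a mean of at least 100 normalised reads, Ano7, Hrh2, Il7r, Dnajc27 and Gigyf1 had profiles over the 6 libraries closest to the mean profile of the 10, with root mean square differences of 0.10, 0.11, 0.11, 0.11 and 0.12 on the log2 scale. Within the 10, Dusp1 was closest to that mean profile, at 0.07, and Fosb farthest, at 0.82. Hrh2, a histamine receptor, had 356, 554 and 529 normalised reads in BODIPY-low libraries, and 201, 422 and 377 in BODIPY-high libraries, and Il7r, the interleukin-7 receptor, had 374, 567 and 628 then 223, 437 and 379. None of these 5 passed between fractions (limma adjusted p between 0.164 and 0.492).

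Markers of other cells differed between the fractions, where limma called 3.52% of all tested genes lower and 9.79% higher. Reads of 9 neutrophil markers made up 0.277%, 0.108% and 0.111% of all reads in BODIPY-low libraries 1, 2 and 3 and between 0.000699% and 0.00810% in BODIPY-high libraries. Neutrophils also express Fos, Junb, Dusp1 and Zfp36, and both these reads and the means of the 10 genes were lower in BODIPY-high libraries. Within the BODIPY-low fraction, library 1 had the most neutrophil reads and the lowest value of each of the 10 genes. Of 9 tested neutrophil markers 8 fell and of 4 tested monocyte markers 3 fell, the latter at 0.0214% to 0.0445% of reads in BODIPY-low and 0.000367% to 0.00203% in BODIPY-high libraries. All 8 choroid plexus markers rose, from between 0.0136% and 0.0651% of reads to between 0.533% and 0.953%. Microglia markers fell in 2 of 10 cases, with a median log2 fold change of -0.18, and took 6.14% and 5.37% of reads on average. Called markers numbered 1 of 8 for border macrophages, 2 of 6 for neurons and 2 of 7 for astrocytes, all higher, and their reads stayed at or below 0.00873%, 0.00110% and 0.0363% of each library. For oligodendrocytes (5 tested) and endothelium (7 tested) limma called 0, with 3 and 1 at an unadjusted p below 0.05, while edgeR called 1 and 0 and DESeq2 2 and 0. T and NK cell markers had no tested gene, and their reads made up at most 0.000117% of a library. How far these cells contribute to the values of the 10 genes was not tested.

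Annotation limits the reading of some genes, because reads were counted without a stated use of strand. Exons of Junb share 173 bases with Prdx2 on the opposite strand, and Prdx2 rose (log2 fold change 0.67, limma adjusted p = 0.0121, and 0.0634 without BODIPY-high library 3), against the direction of Junb. Jun shares 232 exonic bases with Junos, Jund 877 with Gm11175 and Zfp36 125 with Gm44710, all on the opposite strand, and reads there cannot be told apart.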

How the data were processed

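The series asks how lipid droplet-high differ from lipid droplet-low microglia in progranulin knockout mice. The deposited values are a signal that the authors made from read counts, divided by 1 size factor per library. Per the submitters' processing notes and design text, FastQC 0.11.4, STAR 2.5.3a with its gene counting and DESeq2 were used with build mm10 (the notes also list mm9); the sources used here give neither annotation nor strand setting. Whole reads were recovered at a tolerance of 0.01 read for 100% of values. Coordinates and exon lengths come from GENCODE M21 (GRCm38), promoters from RefSeq.

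Each gene was tested with limma 3.58.1 (R 4.3.3, two-sided, trended variance, no block) on log2(value + 1), for the 12821 genes whose mean reached 10, and called where the p adjusted over all of them (Benjamini-Hochberg) was below 0.05. edgeR 4.0.16 and DESeq2 1.42.0 on recovered reads, other pseudocounts, filters and scalings, the replicate block and leaving out libraries were alternatives. The limma step was tested on simulated data. From each gene list at most 3 called genes with the smallest p were named, or the most abundant gene where none was called; 1 gene so chosen is not reported here. The 10 genes, the lists and the rules were chosen with earlier results of these data known.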

Additional observations from a re-analysis of the deposited data

How the results depend on the processing

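The log2 fold changes of the 10 genes stayed negative under every alternative, except that of Fosb, which ranged from -1.61 (without BODIPY-low library 1) to 0.012 (without BODIPY-high library 1, adjusted p = 0.992). With 1 library left out, these values ranged from -0.81 to -0.054 for Fos, -1.01 to -0.28 for Egr1, -0.49 to -0.087 for Jund, -0.77 to -0.24 for Dusp1, -0.63 to -0.29 for Ier2, -0.45 to -0.18 for Atf3, -0.45 to -0.24 for Junb, -0.70 to -0.35 for Zfp36 and -0.67 to -0.39 for Jun. The value nearest 0 came without BODIPY-high library 1, except for Atf3 (BODIPY-low library 3) and Zfp36 (BODIPY-low library 2), and the farthest without BODIPY-low library 1, except for Jund (BODIPY-high library 2). Limma called 1 of the 10 as reported and under both other pseudocounts, both other filters, TMM or total-read scaling and a robust variance, as did edgeR. These fits called between 361 (a mean of at least 50) and 484 (TMM) of all their tested genes lower. The count was 4 with DESeq2, between 0 and 5 with a library left out, and 6 without library number 1 in both groups, the last chosen after the data were seen. Among all tested genes 671, between 151 and 523, and 559 were called lower in these fits. Groups did not overlap for 3 of the 10 genes, for 2 with TMM and for 1 with total-read scaling. Lower BODIPY-high values in all 3 same-numbered pairs and the place of number 1 held for all 10 genes under both other scalings. With the deposited size factors the shares of all tested genes were 13.4% for groups without overlap, 24.8% for the pairs and 15.6% for number 1. Under the other 2 scalings these shares were not computed, so the counts there have no background.

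With the replicate number as a block, limma called 8 of the 10 lower, all but Fosb (adjusted p = 0.0597) and Atf3 (0.136), where 5.93% of tested genes were called lower. Correlations of deviations from the group means across 12821 genes were 0.110, 0.144 and 0.073 for the same-numbered pairs 1, 2 and 3. The third is below the 0.1 set for pairing, so the planned test between library numbers was not run, nor were its alternatives. Every library did correlate best with its own number (other pairs between -0.115 and 0.002), which is a hint from the data and not from the design. With 3 libraries per group an exact permutation test cannot go below p = 0.1. The fewest reads of any of the 10 genes in a library were 22, for Fosb, and 788 for the other genes.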
